A study of Rattus norvegicus with 18 samples.

Results

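The genes described here are transcription factors that shape mesenchymal cells, together with vimentin: Snai1, Snai2, Zeb1, Zeb2, Twist1, Twist2, Tcf21, Prrx1, Foxc2 and Vim. They were chosen by symbol, and all 10 were present among the 13188 genes of the expression table. They were followed through poly-A RNA-seq of Rat1 fibroblasts of the line HO15.19, in which the endogenous myc gene is disrupted (myc-/-), in 18 libraries that form 6 groups of 3 replicates. In all 6 groups the cells carried this disruption. The groups were untransfected myc-/- cells, myc-/- cells that stably expressed human MYC from a virus (myc-/- + MYC, untransfected), myc-/- cells with a control siRNA (myc-/- siCtrl), and myc-/- + MYC cells with the control siRNA (myc-/- + MYC siCtrl) or with an siRNA against the receptor AHR, of which 2 were used, AHR-2 (siAHR-2) and AHR-5 (siAHR-5). Transfected cells received 40 nM siRNA and were harvested 48 h later. The labels do not say whether replicates came from separate cultures, so that the p-values given here measure the spread between these libraries, which may be technical.

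SNAI1, SNAI2, ZEB1 and ZEB2 are zinc finger repressors that bind E-boxes and switch off epithelial genes such as that of E-cadherin during the epithelial-mesenchymal transition, the change by which epithelial cells become motile. TWIST1, TWIST2 and TCF21 are basic helix-loop-helix (bHLH) factors of mesoderm that bind E-boxes as dimers with E-proteins, and the ID proteins block such dimers. PRRX1 is a homeodomain factor of limb and craniofacial mesenchyme, and FOXC2 is a forkhead factor of mesoderm and vessels. Vimentin is the main intermediate filament protein of fibroblasts and a common readout of the mesenchymal state.

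The deposited values are on a log2 scale, and they were normalized in 2 separate sets: a 6-library set, with the myc-/- siCtrl and the myc-/- + MYC libraries, and a 12-library set, with the untransfected myc-/- libraries and all 9 transfected libraries that carry MYC. For 2074 genes whose mean stayed under 5 in each set, the set means lay a median of 0.872 apart on the log2 scale, against a median SD between libraries of 0.0350 and 0.0333 within them, so that levels were compared only within a set. The 6-library set compares MYC as untransfected myc-/- + MYC against myc-/- siCtrl. The 12-library set compares it as transfected myc-/- + MYC siCtrl against untransfected myc-/-. In each of these comparisons the transfection label changes along with MYC, and the contributions of MYC and transfection cannot be told apart. The myc-/- siCtrl columns of the table are named only as controls. Whether the labels of these libraries and of the untransfected myc-/- libraries were exchanged was not tested, and if they were, transfection would not change within either comparison. All results follow the labels as given. Read depth is unknown. The library of myc-/- replicate 2 stood apart: 137 genes lay at least 1.5-fold from the mean of the other libraries of its group, compared with 0 to 12 genes in every other library. Ahr lay between 13.22 and 13.34 in myc-/- + MYC siCtrl cells and between 11.76 and 12.03 over the siAHR-2 and siAHR-5 libraries. Rat Myc lay at 9.16 to 9.47 in myc-/- siCtrl and 8.01 to 8.08 in myc-/- + MYC libraries, and at 10.82 to 10.94 in myc-/- and 8.16 to 8.53 in the other libraries of its set, so that it was higher without MYC in every library of each set. Whether these reads lie outside the disrupted part of the gene is not given in the sources used here, so that they check no label, and human MYC was not analysed here. Of 12 fibroblast markers, Fn1, S100a4, P4hb, Ddr2, Col1a1, Pdgfra and Col3a1 had values from 13.12 upwards in every library, whereas Col1a2 stayed between 3.64 and 4.13. Dcn and Lum had group means of at most 7.67 and 6.78 in the 12-library set. Cdh1 (E-cadherin), Epcam and Krt14, which define epithelia, did not exceed 4.31, 2.42 and 0.354, whereas Cd14 of myeloid cells, Tek of endothelium and Ckm of muscle reached 11.44, 9.20 and 8.87.

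Promoter sequences of RefSeq (build GRCr8, not the rn6 build of the alignments) were matched to 8 of the 10 genes by symbol. The 250 bases before the annotated start of Snai1, Zeb1, Twist1 and Twist2 are shown because these genes carried most of the MYC differences described here. Both strands were searched for CACGTG, the E-box that MYC and MAX prefer, and for CAGGTG, the E-box of SNAI and ZEB repressors, which reads CACCTG on the other strand and does not overlap CACGTG. Capitals mark each match.

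Snai1, chr3:176667226-176667475, plus strand: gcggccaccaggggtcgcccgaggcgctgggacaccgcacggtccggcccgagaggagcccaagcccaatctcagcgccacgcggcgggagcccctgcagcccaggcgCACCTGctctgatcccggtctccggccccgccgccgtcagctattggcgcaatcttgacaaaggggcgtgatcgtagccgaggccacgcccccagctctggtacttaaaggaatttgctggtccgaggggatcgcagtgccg

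Zeb1, chr17:56810654-56810903, minus strand: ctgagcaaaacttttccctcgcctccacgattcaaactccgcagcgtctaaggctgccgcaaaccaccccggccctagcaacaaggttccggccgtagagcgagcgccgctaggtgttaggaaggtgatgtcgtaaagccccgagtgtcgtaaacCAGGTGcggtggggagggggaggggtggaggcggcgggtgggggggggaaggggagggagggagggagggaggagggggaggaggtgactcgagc

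Twist1, chr6:56402059-56402308, plus strand: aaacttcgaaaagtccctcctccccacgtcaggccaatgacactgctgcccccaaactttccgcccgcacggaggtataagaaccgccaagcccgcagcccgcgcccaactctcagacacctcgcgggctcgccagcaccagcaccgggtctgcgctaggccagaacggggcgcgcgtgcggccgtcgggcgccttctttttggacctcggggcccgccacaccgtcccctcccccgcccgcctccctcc

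Twist2, chr9:99821992-99822241, plus strand: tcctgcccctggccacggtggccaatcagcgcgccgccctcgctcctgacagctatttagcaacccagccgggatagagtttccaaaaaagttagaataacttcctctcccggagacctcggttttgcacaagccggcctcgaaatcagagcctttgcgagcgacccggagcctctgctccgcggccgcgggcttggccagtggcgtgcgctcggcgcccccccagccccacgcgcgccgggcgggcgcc

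CAGGTG was found 142 bases before the start of Snai1 and 95 bases before that of Zeb1, and in 0 of the other 6 matched promoters. Over all 33469 promoters of this length it occurred in 15.9%. CACGTG was found in 0 of the 8 promoters and in 5.59% of all promoters. A match describes letters only.

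With MYC, 5 of the 10 genes passed the cutoffs (a change of at least 1.5-fold, given here as log2 fold change, log2FC, and a limma adjusted p of at most 0.01) in the 6-library set. Twist1 was higher and Twist2, Zeb1, Prrx1 and Foxc2 were lower. This share is to be read against 26.8% of all genes, 12.5% higher and 14.3% lower. In the 12-library set, 4 genes passed: Twist1 was higher, and Snai1, Twist2 and Snai2 were lower, where 25.5% of all genes passed, 10.8% higher and 14.7% lower. Twist1 thus passed as higher and Twist2 as lower in each set. The share of all genes that passed in the same direction in both sets is not given here. The median log2FC was −0.41 over the 10 genes and, without Tcf21, which was at its lowest value there, −0.47 over 9 genes in the 12-library set, beside medians over all genes of −0.0038 and −1.4e-04. Groups did not overlap for 9 of the 10 genes in the 6-library set, as for 78.8% of all genes, and for 7 of 9 in the 12-library set, as for 70.5% of all genes. At a limma adjusted p of at most 0.05 without a fold cutoff, 9 of 10 and 7 of 9 genes differed, where 76.2% and 64.7% of all genes did. Without myc-/- replicate 2, the library that stood apart, 5 genes passed in the 12-library set, Prrx1 being added, where 3413 of all 13188 genes passed.

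**Figure D1:**
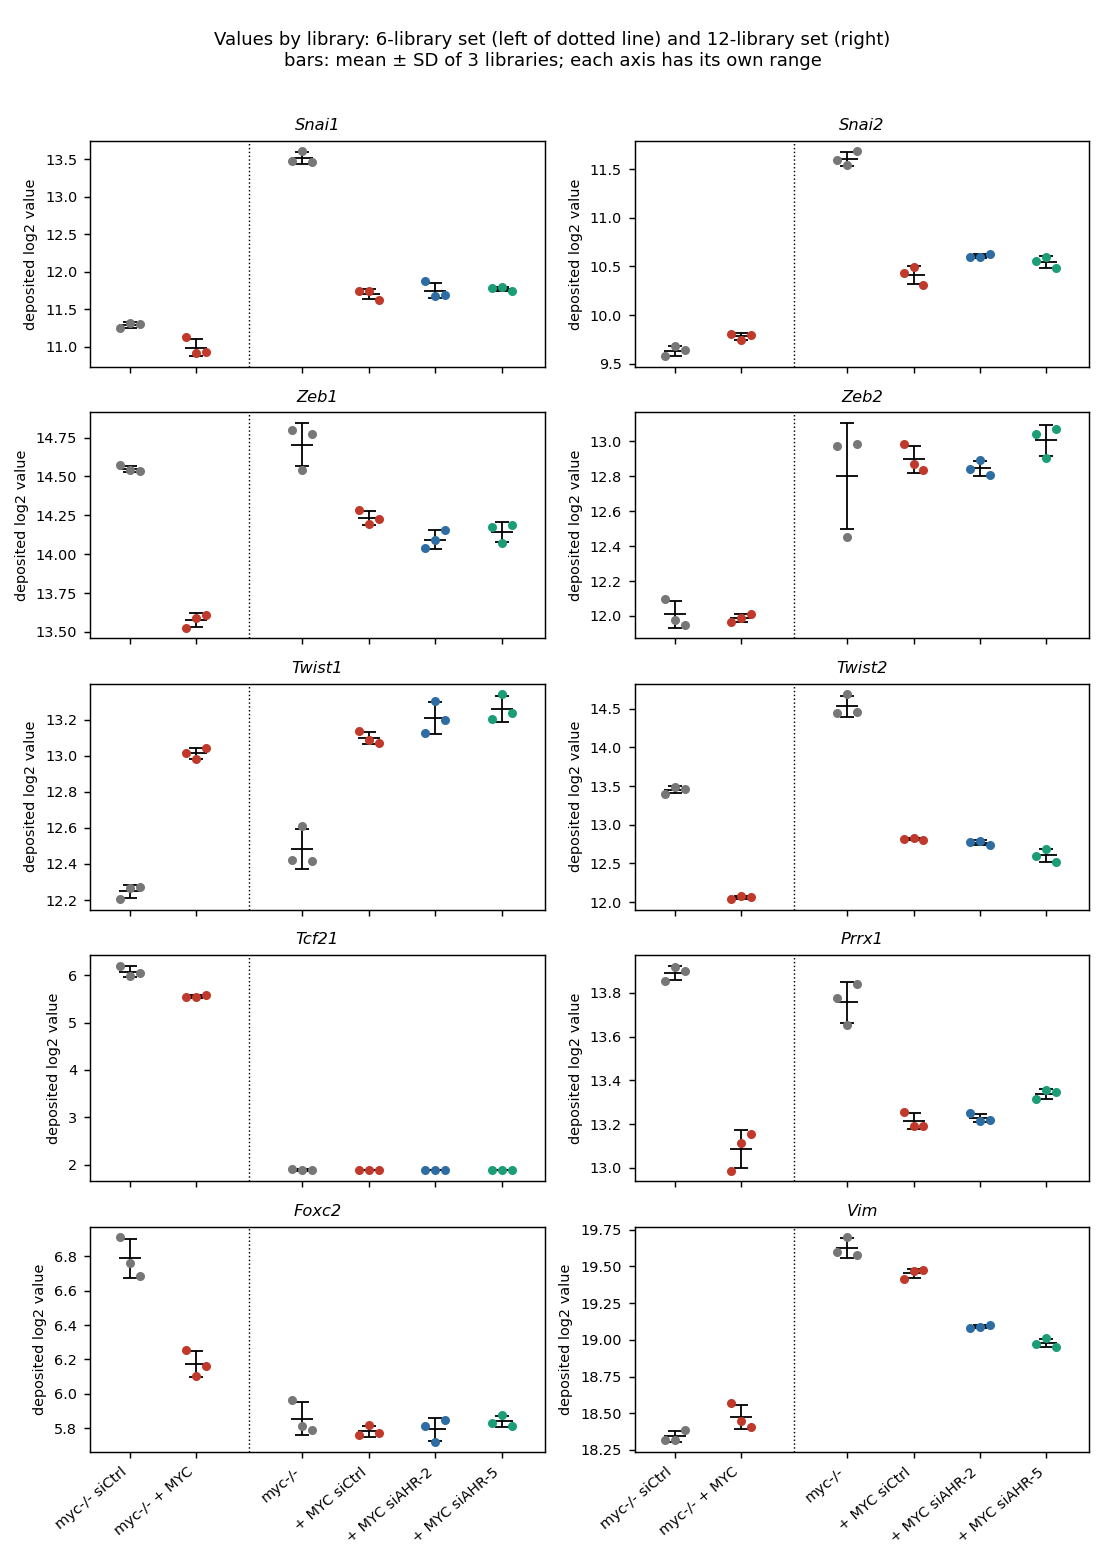
Deposited log2 values (y axis, a range of its own for each gene) of the 10 genes in every library, by group (x axis), with the 6-library set left of the dotted line and the 12-library set right of it; black bars are the mean ± SD of 3 libraries. Twist1 is higher and Twist2 lower in every MYC library than in every library without MYC of the same set, and Vim steps down from myc-/- + MYC siCtrl to siAHR-2 and siAHR-5.

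The TWIST paralogues moved in opposite directions. Twist1, a bHLH factor of neural crest and mesoderm, had values of 12.20, 12.27 and 12.27 in myc-/- siCtrl cells and of 13.01, 12.98 and 13.04 in myc-/- + MYC cells. All MYC libraries lay above all controls, by 1.70-fold (log2FC 0.77, standard error, SE, 0.0338, limma adjusted p = 2.55e-09). Twist1 in the 12-library set had values of 12.42, 12.61 and 12.42 in myc-/- cells and of 13.14, 13.09 and 13.07 in myc-/- + MYC siCtrl cells. Here too the groups did not overlap, with a 1.53-fold rise (log2FC 0.61, SE 0.0604, limma adjusted p = 2.35e-04). The log2FC was 0.58, just under the fold cutoff, without myc-/- replicate 1 and also without myc-/- replicate 3, and 0.68 without replicate 2.

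Twist2, a factor of dermal and bone precursors, had values of 13.40, 13.48 and 13.47 in myc-/- siCtrl cells and of 12.04, 12.07 and 12.07 in myc-/- + MYC cells. This 2.62-fold fall was far larger than the range of 0.0857 over the controls (log2FC −1.39, SE 0.0339, limma adjusted p = 2.22e-11). For the 12-library set they were 14.45, 14.69 and 14.46 without MYC and 12.81, 12.83 and 12.80 with it. The fall was 3.28-fold (log2FC −1.71, SE 0.0690, limma adjusted p = 5.88e-06), and the log2FC was −1.63 without myc-/- replicate 2. Within each library, Twist2 minus Twist1 on the log2 scale was 1.20 ± 0.0117 (SD, n = 3) for myc-/- siCtrl and −0.95 ± 0.0377 for myc-/- + MYC. The difference was 2.04 ± 0.0264 in myc-/- cells and −0.28 ± 0.0384 in myc-/- + MYC siCtrl cells. Thus it was positive in every library without MYC and negative in every library with MYC. Because the values are not scaled by gene length, the sign of the difference does not rank their transcripts, and only its change between groups is compared. How reads from similar stretches of the TWIST genes were counted is not given in the sources used here.

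**Figure D2:**
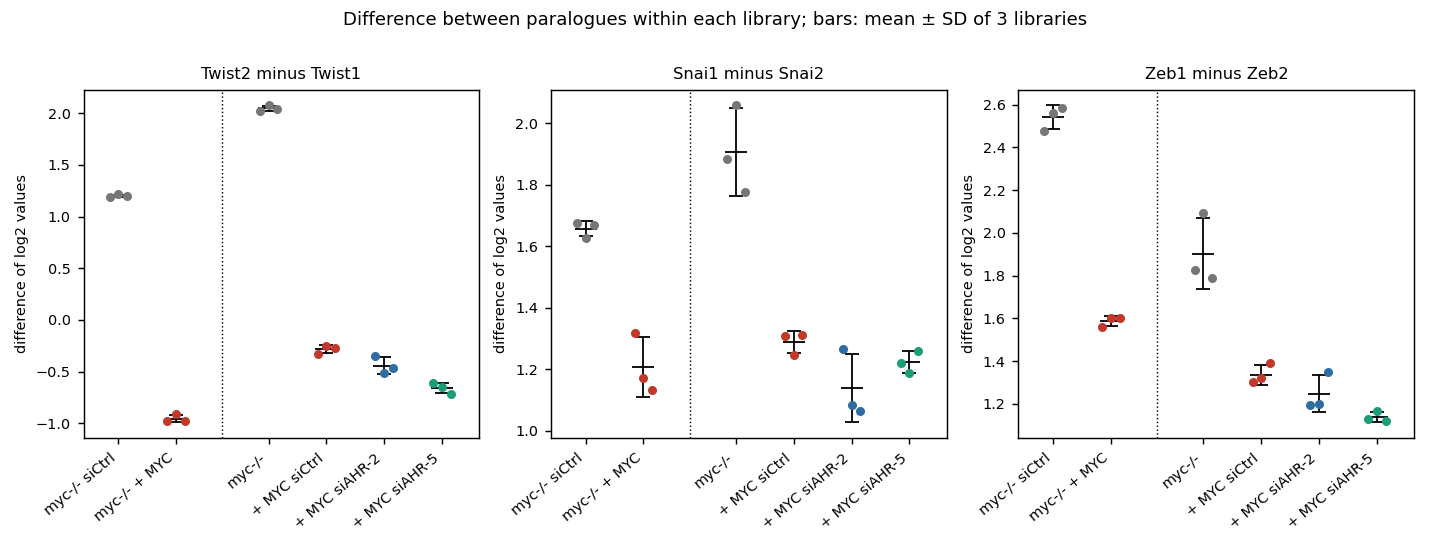
Difference between the log2 values of 2 paralogues within each library (y axis) by group (x axis), for TWIST, SNAI and ZEB genes, with the mean ± SD of 3 libraries; the dotted line separates the sets. The TWIST difference is above 1 without MYC and below 0 with MYC in both sets, and the SNAI and ZEB differences are also lower with MYC.

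The SNAI genes were much lower with MYC in the 12-library set and stayed under the fold cutoff in the 6-library set. Snai1, the zinc finger repressor first linked to loss of E-cadherin, had values of 13.48, 13.60 and 13.46 in myc-/- cells and of 11.74, 11.74 and 11.62 in myc-/- + MYC siCtrl cells. The fall was 3.51-fold (log2FC −1.81, SE 0.0552, limma adjusted p = 2.06e-06), with a log2FC of −1.77 without myc-/- replicate 2. Snai1 in the 6-library set lay at 11.25, 11.31 and 11.31 without MYC and at 11.12, 10.91 and 10.93 with it. These groups did not overlap either, but the log2FC of −0.30 (SE 0.0575, limma adjusted p = 5.58e-04) stayed under the fold cutoff.

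Snai2 (Slug), the paralogue active in neural crest and skin, had values of 11.59, 11.55 and 11.69 in myc-/- cells and of 10.43, 10.50 and 10.31 in myc-/- + MYC siCtrl cells. The fall was 2.29-fold (log2FC −1.19, SE 0.0655, limma adjusted p = 1.94e-05), with a log2FC of −1.23 without myc-/- replicate 2. In the 6-library set it lay at 9.57, 9.68 and 9.64 without MYC and, slightly above, at 9.81, 9.74 and 9.79 with it. Its log2FC there was 0.15 (SE 0.0533, limma adjusted p = 0.0251), past neither cutoff. The effect in the 12-library set minus that in the 6-library set was −1.51 for Snai1 (SE 0.0855, limma adjusted p = 1.48e-09) and −1.34 for Snai2 (SE 0.0854, limma adjusted p = 5.49e-09). These were the only genes of the 9 other than Tcf21 for which the difference passed the cutoffs, where 16.5% of all genes did. At a limma adjusted p of at most 0.05 alone, 7 of 9 genes without Tcf21 differed, where 54.9% of all genes did. In a model with additive terms for MYC, the transfection label and the set, in which the MYC term is the mean of both sets, Snai1 had a log2FC of −1.06 (limma adjusted p = 3.70e-12) and Snai2 one of −0.52 (limma adjusted p = 1.80e-08). The transfection term of this fit, which comes from the difference between the sets and assumes that MYC and transfection add up and that the transfection labels are right, was −0.76 for Snai1 and −0.67 for Snai2.

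Of the ZEB genes, Zeb1 passed the cutoffs, as lower with MYC, in the 6-library set, and Zeb2 did not differ beyond the spread of its libraries. Zeb1, a repressor with zinc finger clusters on either side of a homeodomain, had values of 14.57, 14.54 and 14.53 in myc-/- siCtrl cells and of 13.53, 13.59 and 13.61 in myc-/- + MYC cells. The fall was 1.96-fold (log2FC −0.97, SE 0.0312, limma adjusted p = 1.87e-10). Its values in the other set were 14.80, 14.54 and 14.78 without MYC and 14.28, 14.19 and 14.22 with it. The groups did not overlap, and the log2FC of −0.47 (SE 0.0738, limma adjusted p = 0.00186) was under the fold cutoff, as was that of −0.55 without myc-/- replicate 2.

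Zeb2, the paralogue of Zeb1, had values of 12.10, 11.98 and 11.95 in myc-/- siCtrl cells and of 11.97, 11.99 and 12.01 in myc-/- + MYC cells. These groups overlapped, and the log2FC was −0.02 with a 95% interval from −0.12 to 0.07 (limma adjusted p = 0.676). Zeb2 in the 12-library set lay at 12.97, 12.45 and 12.99 in myc-/- cells and at 12.98, 12.87 and 12.83 in myc-/- + MYC siCtrl cells. The low value belongs to myc-/- replicate 2. The log2FC was 0.09 with an interval from −0.28 to 0.47 (limma adjusted p = 0.615), and −0.08 without that library (limma adjusted p = 0.207). Its direction in the 6-library set also turned after quantile normalization, to 0.03.

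Prrx1, which marks mesenchyme of the limb bud and many fibroblasts, was lower with MYC in every library. Its values were 13.86, 13.92 and 13.90 in myc-/- siCtrl cells and 12.99, 13.11 and 13.15 in myc-/- + MYC cells, a 1.75-fold fall (log2FC −0.81, SE 0.0425, limma adjusted p = 1.13e-08). The 12-library values were 13.78, 13.65 and 13.84 without MYC and 13.25, 13.19 and 13.19 with it. The log2FC of −0.54 (SE 0.0530, limma adjusted p = 2.25e-04) missed the fold cutoff with all libraries and was −0.60, past it, without myc-/- replicate 2.

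Foxc2 and Tcf21 had low values, and whether the authors' transformation shrinks the fold changes of such genes was not tested. Foxc2 lay at 6.91, 6.76 and 6.69 in myc-/- siCtrl cells and at 6.26, 6.10 and 6.16 in myc-/- + MYC cells, a 1.53-fold fall (log2FC −0.61, SE 0.0690, limma adjusted p = 8.16e-06). The fold cutoff was missed without myc-/- siCtrl replicate 1 (log2FC −0.55) and without myc-/- + MYC replicate 2 (−0.58). Foxc2 in the 12-library set lay at 5.96, 5.82 and 5.79 without MYC and at 5.76, 5.82 and 5.77 with it, overlapping groups with a log2FC of −0.07 and an interval from −0.21 to 0.06 (limma adjusted p = 0.292), and 0.04 after quantile normalization.

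Tcf21, a bHLH factor of epicardial and visceral mesenchyme, had values of 6.20, 5.98 and 6.03 in myc-/- siCtrl cells and of 5.53, 5.53 and 5.58 in myc-/- + MYC cells. The groups did not overlap, and the log2FC of −0.53 (SE 0.0603, limma adjusted p = 9.50e-06) stayed under the fold cutoff. It was listed in the 12-library set at between 1.8877 and 1.8881 in 11 libraries and at 1.92 in myc-/- replicate 1. The range over these 11 libraries, 4.2e-04, compares with a median of 0.486 over all genes, computed in the same way without the highest library of each gene. Tcf21 was thus at its lowest value there, and no fold change is given for that set.

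Vim showed no change past the cutoffs in either comparison of MYC. Its values were 18.32, 18.32 and 18.39 in myc-/- siCtrl cells and 18.57, 18.45 and 18.41 in myc-/- + MYC cells, all MYC libraries slightly above the controls (log2FC 0.13, SE 0.0426, limma adjusted p = 0.0154, and 0.08 without myc-/- + MYC replicate 1). The 12-library values were 19.60, 19.70 and 19.58 without MYC and 19.42, 19.47 and 19.48 with it, now all below the controls (log2FC −0.17, SE 0.0550, limma adjusted p = 0.0337). The effects differed by −0.30 between the sets (12-library minus 6-library set, SE 0.0718, limma adjusted p = 0.00229), under the fold cutoff. Vim moved with the scaling: after quantile normalization its log2FC was 0.33 in the 6-library set, −0.08 in the 12-library set (limma adjusted p = 0.118) and −0.50 for the difference. In the additive fit the MYC term for Vim was −0.02 (SE 0.0359, limma adjusted p = 0.610).

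**Figure D3:**
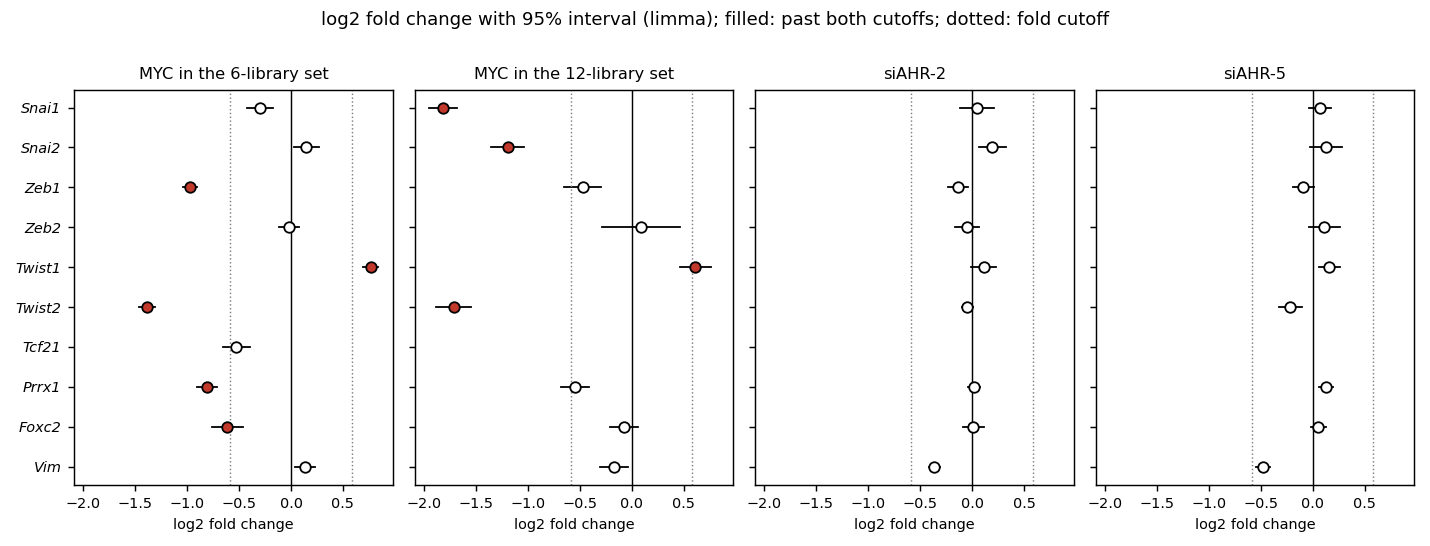
log2FC (x axis) with its 95% interval from limma for each gene (y axis) in the comparisons of MYC in the 6-library set, of MYC in the 12-library set, and of siAHR-2 and siAHR-5 with siCtrl; filled points passed both cutoffs and dotted lines mark the 1.5-fold cutoff. Filled points appear only in the MYC panels, and with the siRNAs Vim lies farthest from 0 on the values as deposited, though not after quantile normalization; Tcf21 is not drawn where it was at its lowest value.

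The comparison of siRNAs asked which of these genes depend on AHR, a ligand-activated transcription factor, in MYC-expressing cells. With either siRNA 0 of the 9 genes other than Tcf21 passed both cutoffs, where 0.47% of all genes passed with siAHR-2 and 2.32% with siAHR-5. At a limma adjusted p of at most 0.05 without a fold cutoff, 3 genes differed with siAHR-2, where 29.3% of all genes did, and 4 with siAHR-5, where 39.2% did. At an unadjusted p under 0.05 the numbers were also 3 and 4, where 40.4% and 47.8% of all genes passed. Groups did not overlap for 4 genes with siAHR-2 and for 5 with siAHR-5, beside 43.3% and 50.5% of all genes. Both comparisons use the same 3 siCtrl libraries.

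On the values as deposited, Vim had the largest difference of these genes with either siRNA. Its values were 19.42, 19.47 and 19.48 in siCtrl libraries, 19.08, 19.09 and 19.10 with siAHR-2 and 18.97, 19.01 and 18.95 with siAHR-5. The 3 groups did not overlap. Vim was 1.29-fold lower with siAHR-2 (log2FC −0.36, SE 0.0209, limma adjusted p = 5.64e-04). It was 1.39-fold lower with siAHR-5 (log2FC −0.48, SE 0.0277, limma adjusted p = 3.62e-04), and neither difference reached the fold cutoff. Set directly against siAHR-2, siAHR-5 gave a further log2FC of −0.11 (SE 0.0188, limma adjusted p = 0.00632). After quantile normalization the log2FC of Vim was −0.08 with siAHR-2 (limma adjusted p = 0.00263), smaller than the 0.15 of Snai2, and −0.19 with siAHR-5 (limma adjusted p = 2.06e-04), smaller than the −0.22 of Twist2, so that its size and its rank depend on the scaling.

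Among the other genes the differences with siRNA were small. Twist2 lay at 12.81, 12.83 and 12.80 with siCtrl, 12.78, 12.79 and 12.73 with siAHR-2 and 12.59, 12.69 and 12.52 with siAHR-5, and its log2FC was −0.21 with siAHR-5 (SE 0.0456, limma adjusted p = 0.0152) but −0.05 with siAHR-2 (limma adjusted p = 0.150). Twist1 had a log2FC of 0.16 with siAHR-5 (limma adjusted p = 0.0293) and 0.11 with siAHR-2 (limma adjusted p = 0.154). Prrx1 lay at 13.25, 13.19 and 13.19 with siCtrl and, above these, at 13.31, 13.36 and 13.35 with siAHR-5 (log2FC 0.13, limma adjusted p = 0.0134), but overlapped siCtrl with siAHR-2 (log2FC 0.01, limma adjusted p = 0.698, turning to −0.0161 after median centring). With siAHR-5, median centring gave a log2FC of 0.10 for Twist1 (limma adjusted p = 0.0707) and 0.07 for Prrx1 (limma adjusted p = 0.135). Snai2 had a log2FC of 0.20 with siAHR-2 (limma adjusted p = 0.0446) and 0.13 with siAHR-5 (limma adjusted p = 0.147). Zeb1 differed by −0.14 on the log2 scale with siAHR-2 (limma adjusted p = 0.0455) and by −0.09 with siAHR-5, groups that did not overlap (limma adjusted p = 0.145). For Snai1, Zeb2 and Foxc2, the 95% intervals of the log2FC ran at most from −0.17 to 0.26 over both siRNAs, which contains no change of the size of the fold cutoff. For Foxc2, whose values were low, this holds for the deposited values only, because shrinkage of its fold changes by the authors' transformation was not tested. Between the siRNAs, 0 of 9 genes passed both cutoffs, where 2.18% of all genes did. Of these genes 4 had an unadjusted p under 0.05 (Vim, Prrx1, Twist2 and Zeb2), where 46.8% of all genes did, and 3 a limma adjusted p of at most 0.05, where 39.1% did.

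Genes that act with, on or downstream of these factors were grouped in lists, as were relatives of the factors and intermediate filament and linker genes. A list is described by its counts and median. Counts of a list with MYC are to be read against the 26.8% of all genes that passed in the 6-library set and the 25.5% that passed in the 12-library set, and counts with an siRNA against the 0.47% that passed with siAHR-2 and the 2.32% that passed with siAHR-5. Of 25 mesenchymal effector genes, which encode matrix, contractile and adhesion proteins of fibroblasts, 17 passed in the 6-library set, 15 lower and 2 higher with MYC, with a median log2FC of −1.04. In the 12-library set, 18 passed, all lower, with a median of −1.80. Mmp2, a matrix metalloprotease, had log2FC of −4.05 and −4.83 (limma adjusted p = 6.26e-15 and 4.30e-08). Tagln, an actin-binding protein of contractile cells, had −2.98 and −5.93 (limma adjusted p = 2.70e-10 and 9.94e-08), and Cdh11, a cadherin of mesenchyme, −3.60 and −5.11 (limma adjusted p = 2.56e-13 and 1.21e-07). Cdh2 (N-cadherin), named here after its values were seen because it is the cadherin usually paired with vimentin, had log2FC of 0.05 and −0.05 (limma adjusted p = 0.140 and 0.543).

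The epithelial genes are those that SNAI and ZEB factors are known to repress. Of 24 in the table, 9 passed in the 6-library set, 6 higher and 3 lower, and 4 in the 12-library set, 2 higher and 2 lower. Beside the 26.8% and 25.5% of all genes, the count in the 6-library set lay above the background, also for the genes that were higher (12.5% of all genes), and the count in the 12-library set lay under it. The list medians were 0.02 and 0.01. Tjp3, a tight junction scaffold, rose in both sets (log2FC 1.18 and 2.45), as did Krt8, a keratin of simple epithelia (1.70 and 1.17), while Pkp1, a desmosome protein, fell (−0.93 and −1.35). Cdh1, at mean values of 3.64 to 4.25 in these groups, had log2FC of 0.0043 and −0.04 (limma adjusted p = 0.922 and 0.0939). These values were low, and whether the authors' transformation shrinks the fold changes of such genes was not tested. A response of Cdh1 can therefore not be judged from them, and the list medians share this limit where their genes were low. With siAHR-5, where 2.32% of all genes passed, 2 of the 24 rose, Cdh3 (P-cadherin, log2FC 1.04, limma adjusted p = 7.45e-05) and Tjp3 (0.66, limma adjusted p = 5.31e-04). With siAHR-2, where 0.47% of all genes passed, 0 of the 24 did, and Cdh3 had a log2FC of −0.28 there (limma adjusted p = 0.00668).

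The next lists had counts near or under those shares of all genes, 26.8% and 25.5%, except for the relatives of the factors. Among 22 corepressors, dimer partners and inhibitors, 5 passed in the 6-library set (1 higher, 4 lower, median −0.21) and 7 in the 12-library set (1 higher, 6 lower, median −0.26). Of the ID genes, inhibitors of bHLH dimers, those named here by size of change fell in both sets: Id4 (log2FC −1.41 and −1.76), Id1 (−1.08 and −1.15) and Id2 (−1.49 and −0.61). Of 17 relatives of the factors, 8 passed in the 6-library set (5 higher, 3 lower, median 0.14) and 7 in the 12-library set (4 higher, 3 lower, median −6.7e-05). They include a rise of Meox2, a homeobox gene of somites (log2FC 4.91 and 3.89), and falls of Alx1, a paired-type homeobox gene of craniofacial mesenchyme (−2.01 and −2.83), and Foxs1, a forkhead gene (−2.37 and −0.94). Of 19 genes for the turnover of SNAI, TWIST and ZEB proteins, 4 passed in the 6-library set (1 higher, 3 lower, median −0.30) and 3 in the 12-library set (1 higher, 2 lower, median −0.32). Lats2, a Hippo pathway kinase, fell in both sets (−0.90 and −1.44), Otub1, a deubiquitinase, had log2FC of −0.49, under the fold cutoff, and −0.65, and Mdm2, a ubiquitin ligase, moved in opposite directions (−0.98 and 0.99). Of 17 intermediate filament and linker genes besides Vim, 5 passed in the 6-library set (1 higher, 4 lower, median −0.31) and 3 in the 12-library set, all lower (median −0.14). Des (desmin) fell in both sets (−1.29 and −1.14), as did Flna, an actin crosslinker (−0.84 and −1.37), and Nefh, a neurofilament gene, had log2FC of −0.79 and, under the fold cutoff, −0.55. With siAHR-2, beside 0.47% of all genes, 0 genes of the 6 lists passed. With siAHR-5, beside 2.32% of all genes, 2 of the 25 mesenchymal effector genes passed and were higher, among them Thy1, a surface protein of fibroblasts (log2FC 0.75, limma adjusted p = 2.58e-04). Of the 22 corepressors, partners and inhibitors, 1 passed, the polycomb protein Bmi1, which fell (−0.78, limma adjusted p = 2.15e-04), and of the 19 turnover genes, 1 passed, the ubiquitin ligase subunit Fbxl14, which fell (−0.63, limma adjusted p = 3.71e-04). The relatives and the intermediate filament genes had 0 of 17 each. Between siAHR-5 and siAHR-2, where 2.18% of all genes passed, 5 of the 25 mesenchymal effector genes and 1 of the 24 epithelial genes were higher with siAHR-5, while 2 of the 22 corepressors, partners and inhibitors and 1 of the 19 turnover genes were lower.

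Beside these results stand the markers of the cell itself. Of the 12 fibroblast markers, 6 passed in the 6-library set, 5 lower and 1 higher with MYC, and 9 in the 12-library set, all lower, where 26.8% and 25.5% of all genes passed. With siAHR-2 0 of them passed, where 0.47% of all genes did. With siAHR-5 1 passed and was higher, where 2.32% of all genes did. The markers with the largest mean size of change over both sets were Col1a1 (log2FC −1.73 and −5.95), Pdgfrb (−1.72 and −3.08) and Fn1 (−1.76 and −1.80). Col3a1 went the other way in the 6-library set, with group means of 15.69 in myc-/- siCtrl and 16.99 in myc-/- + MYC. Pdgfra (14.17 and 14.42) and S100a4 (15.78 and 15.95) also had higher means with MYC there. In the 12-library set the means of these markers were lower with MYC. Of 16 markers of other cell types in the table, 4 passed in the 6-library set (1 higher, 3 lower) and 2 in the 12-library set (both lower), no larger a share than that of all genes, and 0 with either siRNA. Between the siRNAs 2 fibroblast markers and 1 marker of other cells were higher with siAHR-5, where 2.18% of all genes passed. The fibroblast list shares 8 genes with the mesenchymal effectors, and the other list 2 with the epithelial genes. The summed level of the fibroblast markers, as the log2 of their sum, was 20.76 to 20.80 in myc-/- siCtrl, 19.64 to 19.73 in myc-/- + MYC, 21.75 to 22.03 in myc-/-, 19.43 to 19.47 in myc-/- + MYC siCtrl, 19.33 to 19.39 in siAHR-2 and 19.37 to 19.39 in siAHR-5 libraries. That of the other markers was 11.85 to 11.96, 11.10 to 11.20, 11.50 to 11.57, 11.12 to 11.24, 11.11 to 11.21 and 11.44 to 11.49 in the same order. Both sums were thus lower with MYC in every library of each set, and each gives most weight to the markers with the highest values. With either siRNA the fibroblast sum lay below that of every siCtrl library that carries MYC. With siAHR-5 the sum of the other markers lay above that of every such library. Among the markers of other cells the largest mean sizes of change over both sets were those of Ckm of muscle (−1.78 and −1.12), Tek of endothelium (1.61, and 0.38 under the cutoffs) and Cd14 of myeloid cells (−0.99 and −0.74). The part of cell state or of a mixture of cells in the results was not tested, and in bulk RNA fewer expressing cells and less RNA per cell cannot be told apart.

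**Figure D4:**
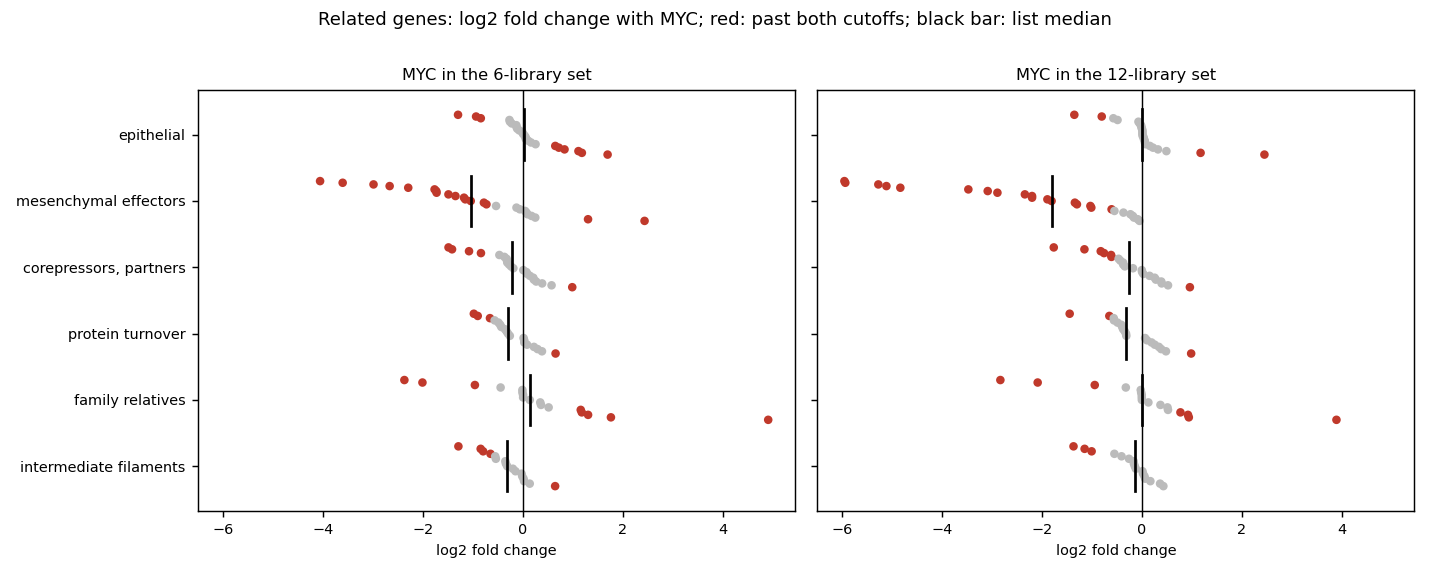
log2FC with MYC (x axis) of every gene of the 6 lists around the described genes (y axis, 1 point a gene, sorted within a list) in the 6-library set and the 12-library set; red points passed both cutoffs and black bars are list medians. Mesenchymal effectors extend to −4.05 and −5.95 with medians of −1.04 and −1.80, while the epithelial list centres on 0. Levels are not drawn, and the epithelial list includes Cdh1, whose values were low. Whether the authors' transformation shrinks the fold changes of such genes was not tested.

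For each gene, likeness to other genes was measured as the root mean square (RMS) difference over the 18 libraries, after centring in each set on the mean of its libraries. Twist2, whose own RMS deviation was 0.757, was most like Uap1l1 (RMS difference 0.0940) and Lipa (0.106). Snai1 (0.637) was most like Ppapdc1a (0.0674) and Rffl (0.0904), and Snai2 (0.393) most like Lamb2 (0.0608) and Pik3ip1 (0.0722). Zeb1 (0.349) was most like Cd44 (0.050) and Dpy19l3 (0.0545). The nearest genes to Twist1 (0.341) were Smim8 (0.0612) and Fv1 (0.0645), those to Prrx1 (0.298) were Lhfp (0.0459) and Desi2 (0.0531), and those to Vim (0.222) were Fdft1 (0.0834) and Blmh (0.0861). For Zeb2 (0.129), Foxc2 (0.189) and Tcf21 (0.157), which varied least, the nearest genes were Rock2 (0.0595), Gja5 (0.0575) and Ccl3 (0.0276). In each case the nearest gene differed from the described gene by less than the gene's own RMS deviation. Picking the nearest of all other genes makes this all but certain, so that it is no result. The RMS values are a description over libraries that share their sets and groups.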

How the data were processed

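According to the study's methods and the submitters' processing notes, the authors used the NGS-QC-Toolkit for read quality, HISAT2 2.1.0 for alignment to rn6, a minimum of 10 total reads per gene, and DESeq2 for normalization. The read counter and annotation are not given in the sources used here. The authors deposited log2 values per library, without pooling; taken off the log scale each library sums to between 86.3 and 161 times the total of CPM values, so they are not log CPM, and which transformation was used is not given in the sources used here. Some genes, such as Tcf21, have a lowest value of their own above 0; a transformation that shrinks low genes, such as a regularized log, would understate their fold changes, and this was not tested. Depth is unknown. All 18 value columns were matched to samples by the column names in the labels.

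Tests used limma 3.58.1 in R 4.3.3 (lmFit, eBayes with trend) on the deposited log2 values, with only the compared groups in a fit and Benjamini-Hochberg adjustment over all 13188 genes. The cutoffs were a 1.5-fold change, with its log2 rounded to 3 decimals, and an adjusted p of 0.01. Tcf21 was left out of counts and medians that use the 12-library set. The difference of the MYC effects was fitted over 12 libraries in 4 groups. The genes and lists were chosen with earlier results of these data known. From each list, up to 3 genes past the cutoffs in either MYC comparison were named by the mean size of their log2FC; likeness names the 2 nearest genes at most. Alternatives were an adjusted p of 0.05 without a fold cutoff, all libraries in one fit, no trend, quantile normalization, median centring, keeping genes with a mean of 1 or more, adding 1 before the log, the replicate block, an additive model and leaving out each library. Plots come from matplotlib 3.10.9 (Python 3.11.15).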

Additional observations from a re-analysis of the deposited data

Results flagged for a closer look

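The effect of MYC on Snai1 and Snai2 differed between the sets, in a test of the difference over 12 libraries in 4 groups with 3 libraries each. The log2FC in the 12-library set minus that in the 6-library set was −1.51 for Snai1 (95% interval from −1.69 to −1.33, limma adjusted p = 1.48e-09) and −1.34 for Snai2 (95% interval from −1.53 to −1.16, limma adjusted p = 5.49e-09). In the 12-library set all 3 MYC libraries lay below all 3 controls for both genes, whereas in the 6-library set they lay below for Snai1 and above for Snai2. Transfection was labelled on the controls in the 6-library set and on the MYC cells in the 12-library set, and neither it nor the separate normalization of the sets can be told apart from a difference in the effect of MYC. Whether the labels of the myc-/- siCtrl and the untransfected myc-/- libraries were exchanged was not tested.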

How the results depend on the processing

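At an adjusted p of at most 0.05 without a fold cutoff, the number of genes called was 9 of 10 for MYC in the 6-library set and, of 9 without Tcf21, 7 in the 12-library set, 3 with siAHR-2, 4 with siAHR-5, 7 for the difference of the MYC effects and 3 between the siRNAs, beside 76.2%, 64.7%, 29.3%, 39.2%, 54.9% and 39.1% of all genes. For the difference of the MYC effects, median centring gave 4 (2184 of all genes) and quantile normalization 3 (2208) in place of 2 (2171). Foxc2 passed in both. Quantile normalization turned the log2FC of Zeb2 with MYC in the 6-library set to 0.0300, that of Foxc2 to 0.0391 in the 12-library set, −0.0307 with siAHR-2 and −0.0020 with siAHR-5, and that of Snai1 between the siRNAs to −0.0116. Median centring turned Prrx1 (−0.0161) and Foxc2 (−0.0201) with siAHR-2, Foxc2 with siAHR-5 (−0.0038) and Snai1 between the siRNAs (−0.0065). Of differences with an adjusted p of at most 0.05, quantile normalization moved that of Vim by over 1.5 times in all 6 comparisons. Between the siRNAs it went from −0.11 to −0.04. Median centring did so for Twist1 (0.16 to 0.10) and Prrx1 (0.13 to 0.07) with siAHR-5 (limma adjusted p = 0.0707 and 0.135). The additive fit, being the mean of both sets, turned Snai2 (−0.52), Zeb2 (0.0371) and Vim (−0.0206) against the 6-library set, where Foxc2 (−0.34) lost and Snai1 (−1.06) gained a call at both cutoffs. Against the 12-library set, Snai2 (−0.52) lost its call, and Zeb1 (−0.72) and Prrx1 (−0.68) gained one. The cause of the other shifts was not tested. All 55 log2FC kept their direction and their side of the joint fold and p cutoffs in one fit of all libraries, without the trend, with a mean value of at least 1, with a pseudocount of 1 and with the replicate block. At an adjusted p of 0.05 alone, limma calls were lost with the replicate block for Snai2 (0.102) and Zeb1 (0.112) with siAHR-2, Twist1 (0.0633) and Prrx1 (0.0501) with siAHR-5 and Vim with MYC in the 12-library set (0.0686), also without the trend (0.0552) and in one fit (0.0570) for Zeb1 with siAHR-2, with a pseudocount of 1 for Vim (0.0501), and in one fit for Prrx1 between the siRNAs (0.0595). Besides Twist1 and Prrx1 with siAHR-5, calls at that p were lost after quantile normalization for Snai2 (0.0908) and Zeb1 (0.0922) with siAHR-2 and, with MYC, for Snai2 in the 6-library set (0.0952) and Vim in the 12-library set (0.118), and after median centring for Snai2 (0.0931) and Vim (0.0644) in the 6-library set and Vim in the 12-library set (0.0640). Calls were added for Twist1 and Zeb2 by quantile normalization and for Zeb1 by median centring, in 1 comparison each. With the replicate block 5, 4, 0 and 0 genes passed both cutoffs for MYC and the siRNAs. Of all genes 3538, 3304, 0 and 270 did. Same-numbered libraries share only a number (mean correlation of deviations −0.0287, −0.0136, 0.0101 and 0.0974). Over all genes the block took the calls with siAHR-2 from 62 to 0 and gave Vim adjusted p of 0.0132 with siAHR-2 and 0.00486 with siAHR-5 (limma). The share of called genes that were higher moved by over 10 points with median centring for siAHR-2 (21 higher and 41 lower, to 15 and 53), for siAHR-5 (194 and 112, to 140 and 165, and 127 and 126 after quantile normalization) and for the difference (896 and 1275, to 1148 and 1036). Leaving out each library in turn gave 4 to 5 called genes for MYC in the 6-library set, 3 to 5 in the 12-library set, 2 to 3 for the difference, and 0 in each fit of the siRNAs. Differences under the cutoffs that changed sign were those of Zeb2, from −0.0497 to 0.0230 in the 6-library set, from −0.0812 to 0.186 in the 12-library set and from −0.0607 to 0.207 for the difference, of Snai1, from −0.0138 to 0.0805 with siAHR-2 and from −0.0116 to 0.0827 between the siRNAs, and of Foxc2, from −0.0161 to 0.0482 with siAHR-2. Of the differences at an adjusted p over 0.05, leaving out 1 library took, among others, Twist1 with siAHR-2 from 0.11 to 0.06 (without siAHR-2 replicate 2), Zeb1 with siAHR-5 from −0.09 to −0.05 (without siAHR-5 replicate 2) and Snai2 with siAHR-5 from 0.13 to 0.08 (without siCtrl replicate 3). Without counts the depth behind a value cannot be given, which also limits Foxc2 and Tcf21, whose values were low.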
